A study of Homo sapiens with 6 samples.

Results

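The strong GSX2 regions were 418 places in the human genome where tagged GSX2 gave a peak in every one of 3 ChIP replicates and where the fold enrichment, averaged over the replicates, was 15 or more. They were taken from 15743 regions made by merging overlapping peaks of the 3 lists on chromosomes 1 to 22 and X. Of these, 3537 held a peak of all 3 replicates and are called shared regions here, and the 418 strong ones made up 11.8% of them. The remaining 3119 shared regions served for comparison. The members were selected on fold enrichment, which the peak caller run by the authors gave each peak relative to its background, so their height, significance, width and summits are described without a test.

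All libraries came from a single group. The cells were H9, an established human embryonic stem cell line, differentiated toward progenitors of the lateral ganglionic eminence and carrying wild-type GSX2 with a 2xFLAG tag under the doxycycline-responsive TRE3G promoter. Doxycycline at 100 ng/mL was added for 12 h from day 10, and cells were harvested at day 10.5. The M2 antibody, which binds FLAG, was used for precipitation, so the protein mapped is the induced, tagged GSX2. The 3 samples of 2% input came without values, and a precipitation from cells lacking the transgene is not analysed here. The series title asks about GSX2 as a repressor in basal ganglia development. Peak lists hold no expression values, so the labelled cell identity could not be checked against marker genes, and they hold no read counts, so depth is unknown. The labels do not say whether the numbered replicates were separate cultures, so part of the spread between replicates may be technical.

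GSX2 is a homeodomain protein made by dividing progenitors of the lateral ganglionic eminence, the part of the embryonic ventral forebrain that gives rise to striatal projection neurons and olfactory interneurons. In the mouse it is required there to keep the dorsal, pallial programme out of ventral progenitors. Homeodomains commonly recognise DNA with the core letters TAAT, and binding of such factors is often found far from gene starts, in introns and between genes.

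Few strong regions lay at gene starts, and those that did allow the sequence under the peak to be read from the RefSeq promoter table of GRCh38.p14, which covers 250 bases before to 50 bases after each start. A promoter window was touched by 12 strong regions (2.87%, 95% Wilson interval 1.65 to 4.95%) and by 162 other shared regions (5.19%, 4.47 to 6.03%). The difference was -2.32 percentage points (95% Newcombe interval -3.80 to -0.121), which covers counting error only, and is 1 of 11 shares of location compared. In 9 of the 12 the summit itself lay in the window. The 81 bases centred on each of these 9 summits are printed because these are the only strong summits that the sequences at hand covered. They read 5′ to 3′ on the strand given with each, which is that of the gene, or for the pair that point away from one start region, that of CCDC59; METTL25 runs on the other strand. Capitals mark TAAT or its reverse complement ATTA.
CCDC59 and METTL25 (chr12:82358452-82358532, minus strand): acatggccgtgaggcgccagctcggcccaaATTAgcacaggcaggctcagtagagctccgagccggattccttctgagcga
CCNG1 (chr5:163437549-163437629, plus strand): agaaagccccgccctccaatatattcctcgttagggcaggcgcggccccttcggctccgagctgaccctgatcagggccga
LINC00398 (chr13:30802957-30803037, plus strand): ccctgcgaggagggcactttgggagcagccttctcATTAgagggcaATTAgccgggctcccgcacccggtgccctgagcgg
MYO16 (chr13:108629419-108629499, plus strand): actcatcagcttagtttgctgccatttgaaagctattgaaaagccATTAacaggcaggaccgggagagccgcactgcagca
COL4A6 (chrX:108439494-108439574, minus strand): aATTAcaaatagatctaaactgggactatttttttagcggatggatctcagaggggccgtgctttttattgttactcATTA
FHL1 (chrX:136169534-136169614, plus strand): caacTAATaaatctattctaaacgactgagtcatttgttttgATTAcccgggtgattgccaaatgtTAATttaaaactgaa
DUSP6 (chr12:89352589-89352669, minus strand): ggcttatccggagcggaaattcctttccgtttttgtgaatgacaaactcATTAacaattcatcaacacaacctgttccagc
PHLPP1 (chr18:62715335-62715415, plus strand): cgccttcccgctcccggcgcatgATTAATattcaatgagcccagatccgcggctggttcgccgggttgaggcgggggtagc
CDC40 (chr6:110180270-110180350, plus strand): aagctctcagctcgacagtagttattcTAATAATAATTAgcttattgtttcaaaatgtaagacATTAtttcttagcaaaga

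TAAT, on either strand, stood in 8 of these 9 summit windows (88.9%, 95% Wilson interval 56.5 to 98.0%). It stood in 46 of the 67 windows of the same length around summits of other shared regions that a promoter covered (68.7%, 56.8 to 78.5%). Across the whole table, 22.3% of 104367 windows of 81 bases held it, with 3 windows taken from each of 34789 promoters. Base composition differed as well, with a median of 50.6% A or T in the strong windows, 49.4% in the other shared windows and 41.98% in all windows, and its part in the motif shares was not tested. The longer word TAATTA, which contains TAAT and is its own reverse complement, stood in 1 of the 9, that of CDC40 (11.1%, 1.99 to 43.5%), and in 10 of the 67 (14.9%, 8.31 to 25.3%). The CCNG1 window held no TAAT, which says only that these letters are not in those 81 bases.

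Over whole promoter windows of 300 bases, TAAT occurred in 17 of the 19 that touched a strong region (89.5%, 68.6 to 97.1%). It occurred in 150 of 196 that touched another shared region (76.5%, 70.1 to 81.9%) and in 50.3% of all promoters. Some of the 19 windows overlap each other, since neighbouring or alternative starts share sequence. They belong to 16 genes.

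The heights at these promoters varied between replicates. The start shared by CCDC59, a nuclear protein gene, and METTL25, a methyltransferase-like gene, had folds of 38.8 in replicate 1, 18.7 in replicate 2 and 27.3 in replicate 3, averaging 28.2 ± 10.1 (SD, n = 3 here and for all regions that follow). Replicate 1 was more than 2 times replicate 2 there, yet all 3 were above 15. CCNG1, which encodes cyclin G1, had 25.3, 23.02 and 29.9 (26.1 ± 3.5). DUSP6, a phosphatase gene that acts in feedback on FGF and ERK signalling, had 12.6, 15.8 and 18.2 (15.6 ± 2.8). The DUSP6 region passed by its mean although replicate 1 was below 15. MYO16, a myosin gene, had 26.1, 26.1 and 10.9 (21.02 ± 8.8), with replicate 3 well below the others. FHL1, a LIM-domain protein gene, had 18.3, 18.4 and 21.2 (19.3 ± 1.6), and the start of COL4A6, a collagen gene, had 23.7, 18.5 and 20.6 (20.9 ± 2.6). At FHL1 and COL4A6 the replicates lay close together. Promoters of SRSF11, a splicing factor gene, and ZNF764, a zinc finger gene, also touched strong regions, with means of 26.7 ± 1.5 and 25.4 ± 8.8, but their summits lay outside the window.

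Strength in any pair of replicates carried over to the replicate left out. Shared regions were chosen again 3 times, each time by the mean of 2 replicates, and their fold was read in the remaining one. The choice did not use that fold, but a peak in that replicate was required. Peak calling therefore limited the fold from below in both groups. The median fold in the left-out replicate was 17.7 in 439 strong regions against 9.14 in 3098 other shared regions for replicate 1. With replicate 2 left out it was 16.4 in 475 strong regions against 8.74 in 3062 others, and with replicate 3 left out 18.3 in 416 against 8.93 in 3121. The difference was 8.58, 7.64 and 9.36, a mean of 8.53 ± 0.86 (SD, n = 3), higher for strong regions in 3 of 3 replicates. An exact two-sided sign-flip permutation test over the replicates gave p = 0.25, the smallest that 3 replicates allow, so this design cannot pass 0.05. Of the regions so chosen, 66.3, 63.4 and 70.9% still reached 15 in the left-out replicate, against 7.13, 5.16 and 7.02% of the others. The medians in the replicates that did the choosing were 18.4, 18.1 and 18.2, in 2 of the 3 cases above the left-out one.

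**Figure D1:**
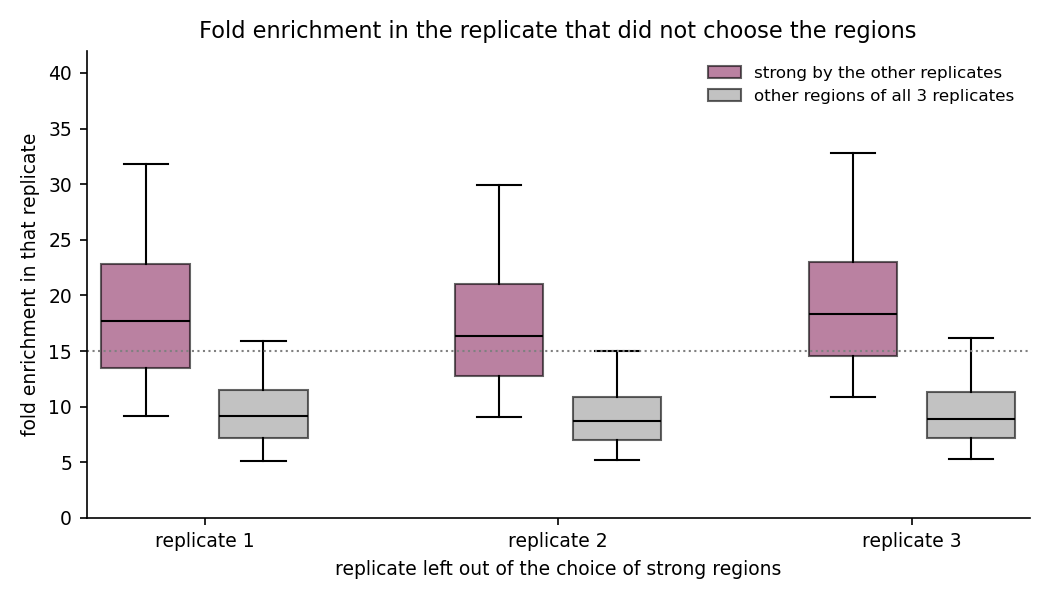
Box plots of fold enrichment in the replicate left out (linear y axis), for regions strong by the other replicates at the left of each pair and other shared regions at the right. Boxes span the quartiles with the median as a line, whiskers run to the 5th and 95th percentiles, and the dotted line is the threshold of 15. The strong medians of 17.7, 16.4 and 18.3 lay above the upper quartile of the other regions in each replicate.

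Presence in the third list was also more frequent. Of regions with a peak in replicates 2 and 3 and a mean of 15 or more, 439 of 440 (99.8%) had a peak in replicate 1, against 77.6% of the weaker regions of that pair, a difference of 22.2 percentage points (95% Newcombe interval 20.5 to 23.5). The shares were 99.0% against 65.1% in replicate 2 (33.9 points, 32.0 to 35.4) and 99.3% against 75.3% in replicate 3 (24.0 points, 22.1 to 25.4). In every replicate almost all strong regions were found again. Counting any region by the replicates it had, 430 reached a mean of 15, of which 418 had all 3 replicates (97.2%, 95.2 to 98.4%), 9 had 2 and 3 had 1.

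The height of the strong regions ranged from 15.05 to 44.3 with a median of 18.4. Most stood just above the limit. Between 15 and 20 lay 266 regions (63.6%), between 20 and 25 lay 90, between 25 and 30 lay 39, and 23 reached 30 or more. The median fold over the strong regions was 19.0, 18.1 and 19.2 in replicates 1, 2 and 3 (18.8 ± 0.59), and over the other shared regions 9.10, 8.79 and 8.91 (8.93 ± 0.16). Replicate 3 was the highest of the 3 in 166 strong regions, replicate 1 in 147 and replicate 2 in 105. Replicate 2 was also the lowest most often, in 168 strong regions. Among the other shared regions replicate 2 was highest least often too, in 955 against 1102 for replicate 1 and 1062 for replicate 3.

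Relative spread between replicates differed little between the sets, while absolute spread was larger in the strong set. The SD over replicates had a median of 3.55 in strong regions and 1.75 in other shared regions. The coefficient of variation, the SD as a percentage of the mean, had medians of 18.0% and 19.7%. The highest replicate exceeded the lowest by at least 2 times in 37 strong regions (8.85%) and in 321 others (10.3%). Within the strong set the median coefficient was 19.1% between 15 and 20 fold and 13.0% at 30 or more. Between replicates, the Spearman coefficients of fold were 0.345, 0.365 and 0.361 across strong regions and 0.436, 0.448 and 0.455 across the others. These are descriptions across regions of the same libraries, each set being cut by height.

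Membership near the limit was loose. Every replicate reached 15 in 228 strong regions (54.5%), 2 replicates in 155, and 1 replicate in 35. Without any single replicate the mean of the other 2 stayed at 15 or more in 299 (71.5%). Just inside were regions at CACHD1, a calcium channel accessory gene (mean 15.09), GRIK4, a kainate receptor gene (15.08), and CLUL1, a clusterin-like gene (15.05). Just outside were regions at MAL2, a membrane trafficking gene (14.99), QPRT, an enzyme gene of NAD synthesis (14.97), and MINDY3, a deubiquitinase gene (14.96). The SD of these 6 regions ran from 1.95 to 4.59, many times the distance between them. Among the other shared regions, 46 had 2 replicates at 15 or more and 364 had 1.

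The most and least even regions showed the extremes. A region inside RAB6B, a gene for a small GTPase of vesicle transport, had folds of 28.9, 28.9 and 28.8 (chr3:133868614-133869101), a coefficient of variation of 0.157%. A region inside the noncoding gene LINC01995, with the flippase gene ATP11B as nearest protein-coding gene at 290 kb, had 18.3, 17.6 and 17.8. One inside DENND1A, an exchange factor gene of endocytosis, had 17.6, 18.4 and 18.2. The 3 replicates nearly coincided in these regions. At the other end stood a region 15.0 kb before the start of FGFR3, an FGF receptor gene, with 28.3, 12.5 and 13.3 (coefficient of variation 49.3%), where replicate 1 alone was high. A region 3.44 kb past MSX2, a homeobox gene, had 26.8, 9.06 and 23.2, with replicate 2 far below the others.

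Summits of the strong regions fell at nearly the same base in every replicate. The largest distance between the 3 summits had a median of 16 bp in strong regions and 33 bp in the others. It was within 50 bp in 401 strong regions (95.9%) and 2184 others (70.0%). It was over 100 bp in 8 strong regions and 414 others. Strong regions were also wider, with a median merged width of 486 bp (quartiles 418 and 572) against 378 bp. Per replicate, the median width of their peaks was 458, 343 and 366 bp, against 330, 249 and 264 bp. Width and summit position come from the same peak calls as the fold and were not tested. Several summits in one peak stood in 50 strong regions (12.0%) and 365 others (11.7%).

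**Figure D2:**
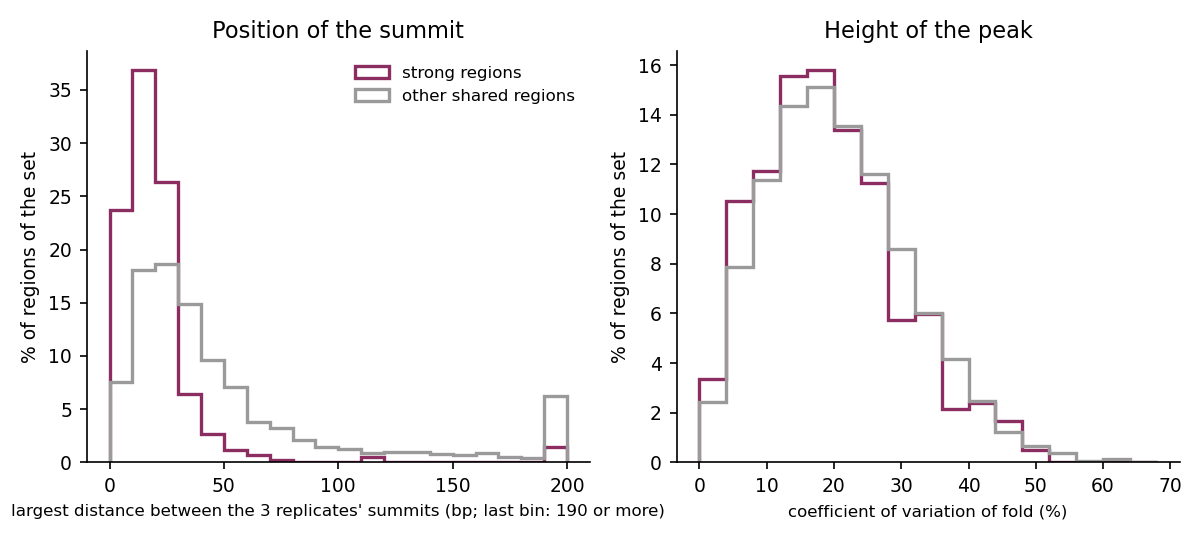
Histograms of the distance between replicate summits in bp (left; the last bin holds all distances of 190 or more) and of the coefficient of variation of fold in % (right), as a percentage of 418 strong regions and 3119 other shared regions. The strong regions pile up at short summit distances, with a median of 16 bp against 33 bp, while the coefficients of variation largely overlap, with medians of 18.0% and 19.7%.

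The widest strong region spanned 4937 bp on chromosome X (chrX:117092009-117096945), 633 kb from CT83, a cancer-testis antigen gene. It held 10, 9 and 12 summits in replicates 1, 2 and 3, with folds of 16.0, 17.6 and 15.1, and its highest summits lay up to 2547 bp apart. The next widest spanned 1313 bp inside ERBB4, a neuregulin receptor gene (26.9, 18.5 and 17.7), and 1299 bp at 73.6 kb from NKX2-1, the regulator of the medial ganglionic eminence (28.4, 24.7 and 29.5). Their peaks were widest in replicate 1, with 1313, 327 and 397 bp in replicates 1, 2 and 3 at ERBB4 and 1250, 665 and 492 bp at NKX2-1. At NKX2-1 the folds of all 3 replicates were far above 15.

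The 20 highest regions had means from 31.5 to 44.3, and every replicate reached 15 in all of them. The first was inside ADGRL3, a latrophilin gene, with folds of 35.0, 46.2 and 51.6, and the next inside PTPRG, a receptor phosphatase gene, with 44.7, 53.4 and 32.5. These 2 regions were not separable, since the replicates of each spanned the other's mean. THADA had 46.8, 39.3 and 40.7, PIK3C2G, a lipid kinase gene, 45.01, 39.2 and 30.9, and the region nearest to WNT9A, a Wnt ligand gene, 39.9, 37.4 and 34.5. The region nearest to RASGRP1, a Ras exchange factor gene, had 39.0, 37.6 and 34.2. WNT9A and RASGRP1 were among the steadiest of these. TLE4, a Groucho corepressor gene, had 39.8, 31.8 and 38.5. The region nearest to KDM4C, a histone demethylase gene, had 30.8, 37.9 and 39.0. The region nearest to MRPL36, a mitochondrial ribosomal protein gene, had 37.6, 27.2 and 39.9. In the last, replicate 2 was clearly the lowest. EXOSC2, an RNA exosome subunit gene, lay 2.59 kb from a region of 39.6, 31.6 and 32.8.

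SPINK1, a trypsin inhibitor gene, lay 1.74 kb from a region with 50.2, 28.7 and 24.4 (34.4 ± 13.9, chr5:147822625-147823122). Replicate 1 there was more than 2 times replicate 3. KCNA6, a potassium channel gene, was 6.72 kb from a region with 38.9, 32.9 and 30.7 (34.2 ± 4.2, chr12:4857514-4858067). DPYD, an enzyme gene of pyrimidine breakdown, held a region with 32.1, 31.9 and 37.0 (33.6 ± 2.9). CADPS, a vesicle priming gene, held one with 36.6, 25.8 and 37.9 (33.4 ± 6.6). All 3 exceeded 25 in every replicate. SAMD9, an antiviral gene, was 43.7 kb from a region with 37.5, 28.7 and 32.2 (32.8 ± 4.4). MTCL3, of a microtubule crosslinking family, had its start 0.912 kb from a region with 28.0, 32.4 and 36.4 (32.3 ± 4.2). DISC1, a scaffold protein gene, held a region with 36.1, 28.5 and 31.6 (32.1 ± 3.8). The ranges of these 3 overlapped. The last 2 were nearest to LOC124903671 (36.1, 23.2 and 36.8, inside RRN3P2) and NPIPB4 (33.3, 31.0 and 30.2, inside RRN3P1) on chromosome 16. RRN3P1 and RRN3P2 are pseudogene copies of RRN3, so the placement of reads between copies is uncertain. Leaving out replicate 1, 2 or 3 kept 16, 18 and 17 of these 20 among the 20 highest.

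**Figure D3:**
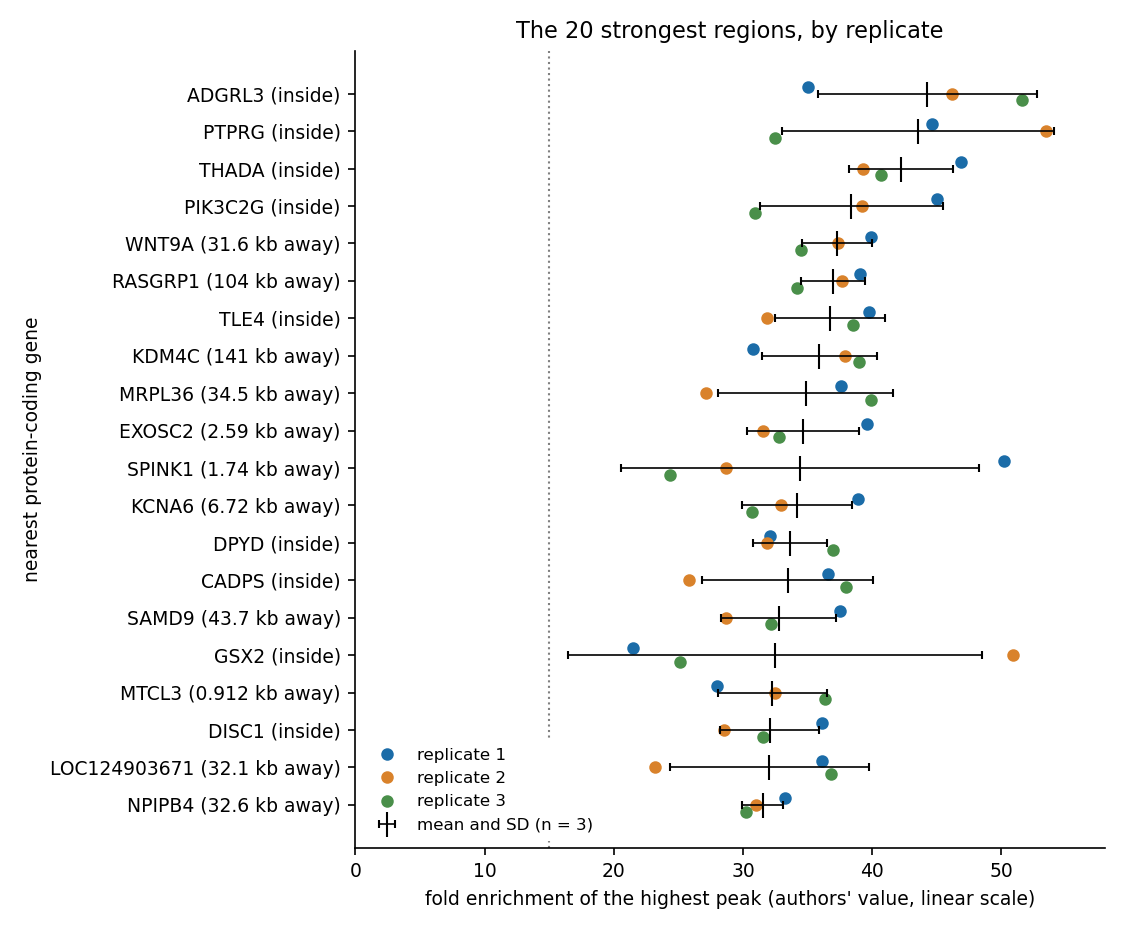
Fold enrichment of the 20 strongest regions on a linear x axis, 1 row per region named by the nearest protein-coding gene and its distance, with a coloured point per replicate and the mean and SD (n = 3) in black. Every point lies above the dotted threshold of 15, and the points of neighbouring rows overlap; GSX2 has the widest spread, with 50.9 in replicate 2 against 21.5 and 25.2.

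GSX2 itself held 2 strong regions, 1.31 kb apart. The higher one lay inside the gene, 750 bp from its far end (chr4:54101581-54101918), with folds of 21.5, 50.9 and 25.2 in replicates 1, 2 and 3 (32.5 ± 16.0), so that replicate 2 was more than 2 times each of the others. The other lay 272 bp inside the start (chr4:54100348-54100919), with 13.3, 15.5 and 20.2 (16.3 ± 3.5), and its replicate summits spread over 422 bp. The transgene also carries GSX2 coding sequence, and reads from the transgene and from the resident gene cannot be told apart in these lists.

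Apart from the lower share in promoter windows given above, the shares by place were near those of the other shared regions. Inside a protein-coding gene lay 224 (53.6%, 48.8 to 58.3%) against 1590 (51.0%, 49.2 to 52.7%), a difference of 2.61 percentage points (-2.49 to 7.65). Within 1 kb of either end of a protein-coding gene lay 26 (6.22%) against 244 (7.82%), a difference of -1.60 points (-3.78 to 1.28). Counting noncoding genes too, the shares were 10.0% and 12.7%, a difference of -2.62 points (-5.42 to 0.83). Over 100 kb from any protein-coding gene lay 19.1% against 20.7%, a difference of -1.61 points (-5.38 to 2.67). Each of these 4 intervals of a difference includes 0, unlike that for promoter windows. The median distance to a gene end was 43.3 kb and 43.8 kb, and the next shared region was a median of 195 kb and 200 kb away. Another shared region stood within 10 kb of 28 strong regions (6.70%) and of 230 others (7.37%).

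**Figure D4:**
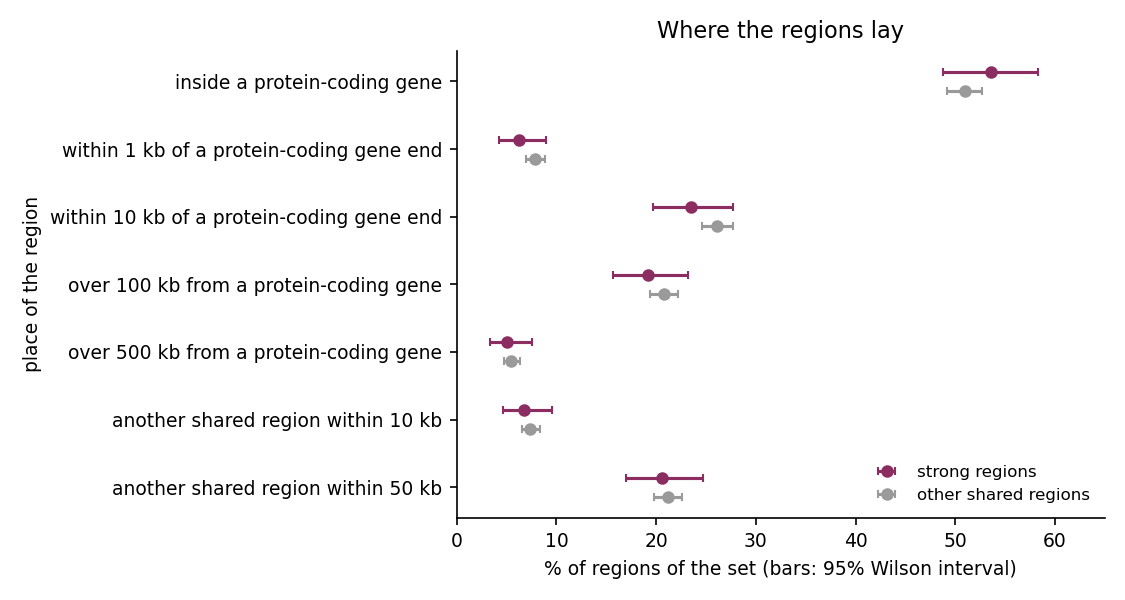
Percentage of regions in each place (linear x axis), strong regions above and other shared regions below in each row, with 95% Wilson intervals that cover counting error only. The intervals overlap in every row plotted, as for regions inside a protein-coding gene with 53.6% of strong and 51.0% of other shared regions. The share in promoter windows, which was lower in strong regions, is not plotted.

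Of the 26 strong regions at a gene end, 18 lay at the start, 4 at the far end and 4 at genes whose strand the promoter table does not give. Among the 244 others the counts were 175, 35 and 34. Starts led in both sets. Besides the promoters above, strong regions at starts included those of OSBPL3, an oxysterol-binding protein gene (16.8, 20.7 and 22.1), KDM4A, a histone demethylase gene (25.5, 17.7 and 23.2), and SCN2A, a neuronal sodium channel gene (20.6, 15.3 and 11.7). Regions at SPDYE14 and SPDYE10, with means of 24.6 and 23.1, belong to a family of near-identical copies and are uncertain. Of 177 strong regions inside genes of known strand, 59 fell in the first 25% of the gene, 43 between 25 and 50%, 41 between 50 and 75% and 34 in the rest. The others had 393, 289, 289 and 309 of 1280 in the same stretches, so in both sets the stretch next to the start held the most.

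The farthest strong regions stood more than a megabase from any protein-coding gene. The nearest gene was GPC5, a glypican gene, at 1473 kb (24.3, 23.7 and 34.5, chr13:89925099-89925541). The others were nearest to ACO1, an iron-regulated aconitase gene, at 1465 kb (15.4, 18.8 and 21.5) and ZEB2, a zinc finger regulator of interneuron development, at 1163 kb (18.7, 15.8 and 20.7). All replicates exceeded 15 at these 3. At such distances the nearest gene is a label of position only.

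The strong regions were nearest to 394 protein-coding genes, 1.97% of 19970 and 16.1% of the 2451 genes nearest to any shared region. For 376 of them the gene had 1 strong region, 13 had 2, 4 had 3 and GLI3 had 4. Genes with a strong region had a median length of 88.2 kb, close to the 86.8 kb of genes with other shared regions only, against 24.2 kb over all protein-coding genes. Shares by gene list are therefore given both among all genes of the list, beside 1.97%, and among its genes with any shared region, beside 16.1%.

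GLI3, the Hedgehog pathway factor that patterns the dorsal telencephalon, had 4 strong regions of 11 shared ones, spread over 286 kb. The first had 20.6, 11.5 and 23.6, and the next 2, 4.74 kb apart and also inside the gene, had 14.9, 12.4 and 20.2, and 14.2, 17.0 and 14.9. The fourth, 74.9 kb outside, had 17.9, 15.0 and 12.9. All 4 means, from 15.3 to 18.5, lay near the limit, with 1 or 2 replicates below 15 in each.

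TLE4 had 3 strong regions of 9 shared ones, at 39.8, 31.8 and 38.5, at 26.4, 23.3 and 17.3, and at 12.8, 14.7 and 22.2. The first 2 were 29.1 kb apart inside the gene and were high in every replicate. The third lay 250 kb past the end of TLE4. PIK3C2G had 3 of 4 (means 38.4, 19.8 and 15.6), MACF1, a cytoskeletal linker gene, 3 of 4 (19.6, 16.3 and 15.2), and CADM1, an adhesion molecule gene, 3 of 7 (21.6, 15.9 and 15.2). Inside the gene lay all 3 at MACF1, 2 at PIK3C2G and 1 at CADM1, whose outer regions were 960 kb apart. These genes with 3 were named after their values were seen. Close pairs stood also at ELOVL4, a fatty acid elongase gene (3.78 kb apart, means 26.9 and 18.9), and inside PLD5, a phospholipase family gene (7.04 kb apart, means 20.5 and 21.8). In all, 8 pairs of neighbouring strong regions lay within 50 kb.

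Of 419 genes in 11 lists of neural, signalling and chromatin genes, 53 were nearest to a strong region (12.6%, 9.80 to 16.2%), beside 1.97% of all protein-coding genes. Among the 223 of them with any shared region, the share was 23.8%, beside 16.1% of all such genes. Genes differ in how many shared regions they have, and these shares by gene do not allow for that. Counted by region, the strong share ran from 3 of 59 shared regions in the axon guidance list to 7 of 26 in the Notch and Groucho list. Over all genes it was 418 of 3537 (11.8%). None of 111 genes in 5 lists for cell cycle, liver, skeletal and cardiac muscle, blood and immune cells, and ribosomal proteins had a strong region, and 10 of them had a shared one. A count of 0 here allows a share of up to 2.70% by a limit of 3 counts and 3.35% by the Wilson interval. Both limits lie above 1.97%, so this 0 cannot be told from the share of all protein-coding genes. The genes of these 5 lists are also short, with list medians from 4.79 to 18.9 kb against 24.2 kb over all protein-coding genes. This 0 rests on all 3 replicates and the threshold of 15: without replicate 1, and also without replicate 2, the liver list and the muscle list had 1 gene each, and at a threshold of 12 the liver, muscle and cell cycle lists had 1 each. Most strong regions, 353 (84.4%), were nearest to a gene of no list. The lists do not hold every gene of their kind. RPS12, a ribosomal protein gene (mean 16.7), and CCNG1, the cyclin G1 gene (26.1), had a strong region and were in no list. The 0 therefore covers the 111 listed genes only.

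**Figure D5:**
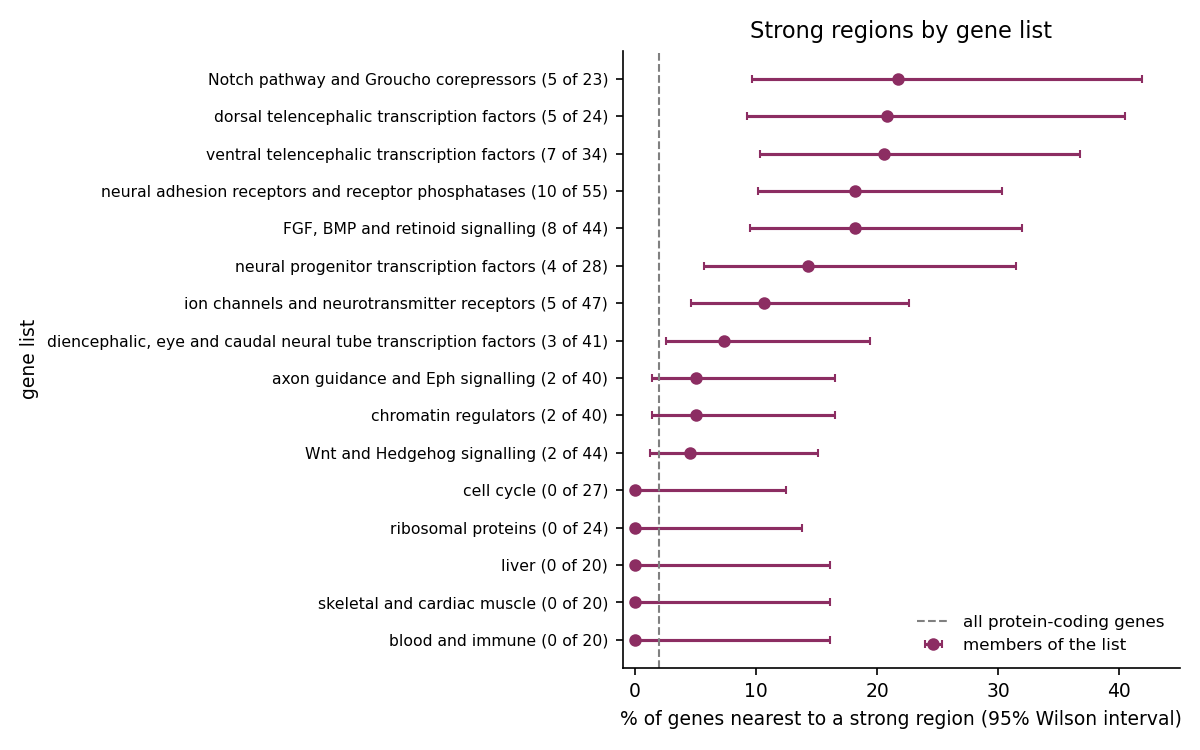
Percentage of the genes of each list nearest to at least 1 strong region (linear x axis, 1 row per list with its counts), with 95% Wilson intervals. The dashed line marks all protein-coding genes at 1.97%. The Notch and Groucho list stands at 21.7%, and the 5 comparison lists stand at 0, with intervals that include the dashed line.

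Among transcription factors of the ventral telencephalon, where GSX2 acts, 7 of 34 had a strong region (20.6%), or 33.3% of the 21 with a shared one. Counted by region, 8 of the list's 48 shared regions were strong. GSX2 is 1 of the 7, and without its regions, which may hold reads of the transgene, the count was 6. Besides GSX2 the 7 genes were led by NR2F1, an orphan nuclear receptor gene of caudal eminence and cortex, with folds of 31.5, 32.1 and 19.97 at 337 kb. NKX2-1 was described above, and NR2F2, its caudal eminence relative of the NR2F family, had 18.4, 25.9 and 19.8 at 483 kb. All replicates of both NR2F regions exceeded 15, though both lay far from their gene. The other 3 regions, 1163 kb from ZEB2 and inside RARB and MEIS1, had means from 16.0 to 18.4. RARB, a retinoic acid receptor gene of the striatum, had 20.2, 9.43 and 22.2, with replicate 2 below the rest. MEIS1, a TALE homeobox gene, had 10.9, 18.2 and 19.0.

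Among dorsal telencephalic factors, 5 of 24 had a strong region (20.8%), or 38.5% of the 13 with a shared one. Counted by region, 8 of the list's 35 shared regions were strong, beside 11.8% of all shared regions. FEZF1, a zinc finger regulator of forebrain patterning, had one 1.84 kb before its start with 20.6, 21.3 and 27.5 (chr7:122312326-122312746). TFAP2D, an AP-2 factor gene, held one with 20.4, 14.8 and 24.3. NEUROG2, the proneural factor of cortical progenitors, had 20.3, 18.1 and 18.0 at 7.48 kb before its start (chr4:112523377-112523954). FEZF1 and NEUROG2 were above 15 in every replicate. PAX6, the homeodomain factor of pallial progenitors, held a region with 13.7, 25.5 and 17.1 (chr11:31799309-31799803), where replicate 2 was the highest and replicate 1 fell short of 15. GLI3 was the fifth.

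Neural progenitor factors had 4 of 28 (14.3%), or 21.1% of the 19 with a shared region. Counted by region, 4 of the list's 50 shared regions were strong, below the 11.8% of all shared regions. SOX2, the core factor of neural stem cells, had a region 3.75 kb past its end with 28.2, 24.1 and 34.6, and POU3F2, a POU factor gene of neurogenesis, one at 110 kb with 23.9, 23.3 and 26.5. Both were high throughout. SOX5, a SoxD gene, held one with 21.4, 12.8 and 21.5, and ZIC2, a zinc finger gene of the early forebrain, had one 1.33 kb past its end with 19.8, 15.7 and 16.2. In the list of diencephalic, eye and caudal neural tube factors 3 of 41 (7.32%) had one, or 15.8% of the 19 with a shared region, near the 16.1% of all such genes. They were TCF7L2, a Wnt effector of the thalamus (25.6, 21.7 and 36.5), PAX3 of the dorsal neural tube (20.2, 18.4 and 19.9) and IRX5, an Iroquois gene (20.3, 18.9 and 14.2, at 276 kb).

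The Notch and Groucho list had the largest share of the 16, with 5 of 23 (21.7%, 9.66 to 41.9%), or 50% of the 10 with a shared region, and 4 of the 5 were TLE genes. Groucho corepressors lack DNA binding of their own and are brought to DNA by other factors. Besides TLE4, TLE3 had a region 1.97 kb before its start with 21.95, 17.8 and 32.8, TLE2 had one inside, 424 bp from its start, with 19.2, 15.8 and 18.7, and TLE1 held one with 18.2, 10.4 and 17.2. TLE2 and TLE3 exceeded 15 in every replicate, and TLE1 did not. JAG1, a Notch ligand gene, had 17.4, 12.8 and 17.7 at 34.5 kb. TLE6, a further TLE gene with a strong region (mean 16.7), was in no list.

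In FGF, BMP and retinoid signalling 8 of 44 (18.2%) had a strong region, or 33.3% of the 24 with a shared one. Counted by region, 8 of the list's 36 shared regions were strong, beside 11.8% of all shared regions. FGF10, a ligand gene, held one with 15.8, 30.0 and 42.4, the highest replicate more than 2 times the lowest. BMP7, a ligand gene, had 31.8, 24.7 and 27.9 at 244 kb, ETV5, an ETS factor gene downstream of FGF signalling, held one with 28.6, 16.9 and 22.1, and BMP5, another ligand gene, held one with 24.3, 15.0 and 23.5. All of these 4 were above 15 in every replicate. The remaining 4, at FGFR1, SPRY2, FGFR3 and RDH10, had means from 15.5 to 19.9. The region at the DUSP6 start is not among the 8, because its nearest protein-coding gene was taken to be POC1B-DUSP6. Wnt and Hedgehog genes had 2 of 44 (4.55%), or 15.4% of the 13 with a shared region, near the 16.1% of all such genes. Without replicate 2 the count was 4. The 2 were WNT9A and FZD8, a Frizzled receptor gene with 22.8, 15.4 and 14.6 at 1.02 kb past its end. They are not all Wnt and Hedgehog genes with a strong region. GLI3 and TCF7L2 were counted in the dorsal and diencephalic lists, and FZD2, another Frizzled gene (mean 17.6), was in no list.

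Adhesion receptors and receptor phosphatases had 10 of 55 (18.2%), or 26.3% of the 38 with a shared region, in a list whose genes are long, with a median of 688 kb. Counted by region, 12 of the list's 107 shared regions were strong, near the 11.8% of all shared regions. After ADGRL3 and PTPRG came CDH11, a cadherin gene, with 31.8, 24.5 and 22.2 at 789 kb, and CDH9, another, with 19.7, 20.3 and 26.0 at 30.5 kb. Both were high in every replicate. The other 6 had means from 16.8 to 21.6. Ion channels and neurotransmitter receptors had 5 of 47 (10.6%), or 20% of the 25 with a shared region. Counted by region, 7 of the list's 37 shared regions were strong. The listed genes were led by CACNA2D3, a calcium channel accessory gene (32.3, 24.2 and 37.7), and DRD2, the dopamine receptor gene of striatal neurons (26.0, 21.5 and 18.9 at 57.5 kb). KCNJ3, a potassium channel gene, came next (14.3, 13.6 and 20.6 at 134 kb). CACNA2D3 and DRD2 were above 15 throughout, and KCNJ3 in 1 replicate only. This list is incomplete too: KCNA6 (mean 34.2) and CACHD1 (mean 15.09), described above, had a strong region and were in no list.

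Axon guidance and Eph genes had 2 of 40 (5%), or 7.41% of the 27 with a shared region, below the 16.1% of all such genes. This did not hold at a threshold of 12, where 10 of the 27 had one, beside 812 of all 2451 such genes. The 2 listed genes were SEMA5A, a semaphorin gene, with 27.1, 28.3 and 32.8, steady and high, and EPHA7, an Eph receptor gene, with 14.6, 15.0 and 18.9 at 647 kb. SEMA4B, another semaphorin gene with a strong region (mean 16.9), was in no list. Chromatin regulators also had 2 of 40 (5%), or 14.3% of the 14 with a shared region. These were KDM4C, 141 kb from its region, and MECOM, a zinc finger regulator gene, with 15.6, 17.0 and 15.0, the last just under the limit. The list does not hold every such gene: KDM4A, a histone demethylase gene with a strong region (mean 22.1), was in no list. Across the 16 lists the share with a strong region thus ran from 0 to 21.7% of all genes of a list, and the lists were chosen with earlier results of these data known, so the counts are descriptions.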

How the data were processed

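Per the labels, FLAG ChIP was sequenced from 3 replicates of 1 group. The build was hg38, and MACS3, Bowtie2, Trim Galore, deepTools and SAMtools are listed per the submitters' processing notes. Not given in the sources used here are caller settings and whether input was the control. Each replicate has 1 peak list deposited by the authors. Fold enrichment in the deposited lists is a linear ratio to the background of the peak caller, p and q are given as −log10 values, and the smallest −log10 q of 3 is a q-value of 0.001. The deposited score was not used, and the authors' summit offset gave each summit's position. The lists give no counts, so depth is unknown and the precision it gives cannot be stated.

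Lines of 1 interval were reduced to the summit of highest fold, peaks on chromosomes 1 to 22 and X were merged at an overlap of 1 bp, and the highest fold per replicate was kept. Regions on unplaced or alternate sequences were left out. A region's position is the median of the replicates' summits. Genes came from RefSeq GRCh38.p14 as spans without exons, and a RefSeq promoter table gave the strand of 15811 of 19970 protein-coding genes. Shares have 95% Wilson and differences Newcombe intervals, which cover counting error only, since regions are not replicates. Median folds held out of the choice were compared by an exact permutation test, among regions with a peak in all 3 replicates. Merging was tested on simulated data. Python 3.11.15, numpy 2.4.6, pandas 2.3.3, scipy 1.17.1 and matplotlib 3.10.9 were used.

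The members and the 16 gene lists, with 530 matched genes, were chosen with earlier results of these data known. Named were the 20 highest regions, genes with 4 or more, up to 4 genes per list, the 3 extremes of evenness, width and distance, the 3 regions on either side of the threshold, up to 8 promoters by height, and GSX2. Other genes, and the 9 printed promoters, were named after their values were seen. Alternatives were thresholds of 12 and 20, every replicate or the median in place of the mean, scaling to a common median, stricter q, larger overlap, other gene windows and leaving out each replicate. The result without the GSX2 regions was added after seeing the data.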

Additional observations from a re-analysis of the deposited data

Results flagged for a closer look

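Peaks on unplaced or alternate sequences, which entered no comparison, also gave shared regions: 29 of them held a peak of all 3 replicates. They are listed because they lie outside the comparisons, and with no control library no level was tested. Of these, 2 had a mean fold of 15 or more, with 20.5, 20.02 and 20.8 in replicates 1, 2 and 3 of the first and 18.5, 11.3 and 19.8 of the second. The first was even across replicates, and replicate 2 was low in the second.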

How the results depend on the processing

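The number of strong regions followed its definition: 904 at a threshold of 12, 152 at 20 and 228 with every replicate at 15 or more, against 418, and the number of nearest genes was then 812, 148 and 220, against 394. With every replicate at 15 or more the median coefficient of variation was 13.6%, against 18.0%, a setting that by its construction leaves out regions with a low replicate. Leaving out each replicate gave 419 to 480 regions, of which 357 to 383 were among the 418, 396 to 452 genes, 5.97 to 6.36% at a gene end, 52.5 to 52.9% inside a gene, a coefficient of 13.6 to 15.0% over 2 replicates, and a held-out difference of 7.70 to 8.33. The share at a gene end was 18.2% within 5 kb and 10.0% with all annotated genes. The held-out difference was 5.75 at a threshold of 12, 13.8 at 20 and 8.57 after scaling. Using the median over replicates gave 429 regions with 383 of the 418 among them, scaling gave 419, the stricter q and the larger overlap 418, and leaving out GSX2 416. Leaving out a replicate moved the count of a gene list by over 1.5 times for Wnt and Hedgehog genes (2 to 4) and for the liver and muscle lists (0 to 1 each). The threshold moved the lists too. At 12 the axon guidance list had 10 genes against 2. At 20 the dorsal list had 1 and the Notch and Groucho list 2, against 5 each. Over all settings, 33 list counts moved by over 1.5 times or from 0, and 143 did not. No paired analysis was possible because the inputs, which share the replicate numbers, have no values here and only 1 group remains. Unknown depth and unknown caller settings limit the folds and widths.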

Other observations

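Within the strong set, mean fold had a Spearman coefficient of 0.286 with merged width and -0.243 with the distance between summits over 418 regions, and of -0.0695 with the distance to a gene end. Over the 3119 other shared regions these coefficients were 0.0926, -0.50 and 0.00246. They are descriptions across regions of the same 3 libraries, without a test. On chromosome X lay 12 strong regions (2.87%) and 70 others (2.24%). By chromosome, the strong share of shared regions ran from 5.41% on chromosome 22 (2 of 37) to 16.7% on chromosome 15 (16 of 96), with wide counting intervals of 1.495 to 17.7% and 10.5 to 25.4%.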
